A study of Homo sapiens with 4 samples.

Results

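Fibroblast growth factors (FGFs) and their receptors were followed after silencing of PRR11 in ACHN, a cell line established from human kidney cancer. The genes were chosen by name, as ligands and receptors of the pathway, and not by a threshold on their values. Earlier results of these data were known when the genes were chosen. Of these 10 names, 9 were found among the 36359 genes of the table, namely the ligands FGF1, FGF2, FGF5, FGF11 and FGF18 and the receptors FGFR1, FGFR2, FGFR3 and FGFR4, and FGF9 was not analysed here. The cells carried no other change in the labels than transfection, by Lipofectamine 3000, with siNC, the control, in 2 libraries and siPRR11 in the other 2. All results come from a single cell line grown in serum, and the labels give neither the time after transfection nor which siPRR11 duplex a library received. Nothing in the labels says that the libraries of a group came from separate cultures, so p-values measure the spread between these libraries, which may be technical.

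FGFs are a family of signaling proteins. Most are secreted, are held near the cell surface by heparan sulfate chains, and bind receptor tyrosine kinases of the FGFR family, which then recruit adaptor proteins and pass signals to the ERK and AKT pathways. A smaller group, to which FGF11 belongs, lacks a secretion signal and stays inside the cell. In the developing kidney FGF signaling through FGFR1 and FGFR2 is known to be needed for growth of the ureteric bud and of the nephron progenitors.

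In PRR11-silenced cells FGF18 and FGFR2 mRNA rose and FGFR1 mRNA fell. FGF18 was at 3.91 times and FGFR2 at 1.75 times its control level, and FGFR1 was at 76.8% of it. The other 6 genes did not pass the threshold of 0.05 for the p-value of edgeR's quasi-likelihood test, adjusted by the Benjamini-Hochberg method over 21630 genes. In bulk RNA, fewer cells of a type and less RNA per cell cannot be told apart. Thus 3 of 9 genes were called, 2 of them higher and 1 lower, against 16.7% of all genes tested, of which 7.61% were higher and 9.14% lower. In 6 of the 9 genes the values of the siNC and siPRR11 libraries did not overlap, against 58.4% of all genes tested, so lack of overlap alone is common in this comparison. The median log2 fold change of the 9 genes was -0.01, beside 0.00224 over all genes tested.

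Counted reads ranged from 59003839 to 92612749 per library. PRR11 itself was at 41.3 and 40.4 CPM (reads scaled to library size with TMM factors) in siNC and at 15.3 and 14.0 CPM in siPRR11, a log2 fold change of -1.48 (edgeR adjusted p = 3.35e-06). The renal epithelial markers PAX8, PAX2, KRT8, KRT18, KRT19, CDH16 and EPCAM were detected in every library, while CDH6 had at most 6 reads. Of these 7 detected markers, KRT18 and CDH16 rose and KRT19 and EPCAM fell. Among 12 markers of leukocytes, endothelium, fibroblasts and muscle, 10 stayed under 0.1 RPKM (reads scaled to exonic length and library size) in all libraries, including PTPRC, PECAM1 and DCN. The summed RPKM of the 12 was 0.579 to 0.702 in siNC and 1.13 to 1.29 in siPRR11. Only 5 of the 12 had enough reads to be tested, and all 5 had a log2 fold change above 0. Of these 5 only DES, a muscle intermediate filament gene, passed the threshold. It had 0.563 and 0.483 CPM in siNC and 1.68 and 1.61 CPM in siPRR11. The part of these markers in the results was not tested.

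The bases that precede the start of transcription are given for FGF18, FGFR2 and FGFR3, the genes of the family that lay higher in both siPRR11 libraries, although FGFR3 did not pass the threshold. The sequences were taken from RefSeq on GRCh38.p14 and are written 5' to 3' on the strand of the gene. Capitals mark matches, on either strand, to GGGCGG, the core bound by SP1 (which reads CCGCCC on the other strand), and to CTTTGAT, a TCF/LEF motif. FGF18 is shown at chr5:171419397-171419646 on the plus strand, FGFR2 at chr10:121598459-121598694 on the minus strand and FGFR3 at chr4:1793043-1793292 on the plus strand.
FGF18: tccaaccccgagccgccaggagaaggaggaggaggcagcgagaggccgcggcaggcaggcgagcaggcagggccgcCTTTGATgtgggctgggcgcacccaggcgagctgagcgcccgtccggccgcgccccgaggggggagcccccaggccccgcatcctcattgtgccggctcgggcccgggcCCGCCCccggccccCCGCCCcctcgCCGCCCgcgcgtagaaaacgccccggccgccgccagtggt
FGFR2: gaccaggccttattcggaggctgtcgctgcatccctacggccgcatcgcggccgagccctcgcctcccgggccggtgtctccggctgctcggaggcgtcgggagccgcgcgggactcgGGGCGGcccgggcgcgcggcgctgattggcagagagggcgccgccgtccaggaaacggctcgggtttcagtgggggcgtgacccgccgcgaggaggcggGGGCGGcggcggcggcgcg
FGFR3: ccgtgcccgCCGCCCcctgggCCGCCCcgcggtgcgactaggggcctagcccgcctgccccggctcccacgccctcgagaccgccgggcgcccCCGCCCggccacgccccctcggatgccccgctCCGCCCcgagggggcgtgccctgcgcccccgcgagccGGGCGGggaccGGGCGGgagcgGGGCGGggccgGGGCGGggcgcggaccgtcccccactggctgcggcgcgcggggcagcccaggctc

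These stretches hold 3, 2 and 8 SP1 matches for FGF18, FGFR2 and FGFR3, and the single TCF/LEF match is that of FGF18. Over 27305 genes with a promoter in the reference, 42.3% of windows of 250 bases held at least 1 SP1 match and 2.28% held a TCF/LEF match. In their full windows of 250 bases, 78.8%, 78.4% and 86.8% of the bases of FGF18, FGFR2 and FGFR3 were G or C, beside a median of 58% over these promoters. High GC content was not confined to these genes, since FGFR4, which did not pass the threshold, had 79.6%. SP1 matches were not confined to them either. The windows of FGFR4, FGF2, FGF11 and FGF5, none of which passed the threshold, held 7, 3, 2 and 1. The 1 FGF1 window that was read stood apart with 44.8%, only 2 CpG dinucleotides and no SP1 match. The promoter of FGFR1 was not examined. No window of the 8 genes examined held TATAAA, the AP-1 motif TGANTCA, the E-box CACGTG or the ETS motif CCGGAAG, which 11.1%, 6.6%, 6.49% and 8.82% of all promoters held. FGFR2 has 5 promoters in the reference, of which 1 is shown. FGF1 has 4, FGF11 has 3, and FGF5 and FGFR4 have 2 each. Only the first listed promoter of each gene was read, so the others may differ in GC content and matches. A match is a feature of the letters and not evidence of a bound factor.

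Levels of different genes were compared per exonic length, in RPKM. In siNC cells FGFR1 was the most abundant of the 9 mRNAs, with 14.4 and 16.9 RPKM, followed by FGF2 with 10.6 and 12.0, FGFR4 with 9.30 and 7.96 and FGFR2 with 6.45 and 5.21 RPKM. All 4 lay above the median of genes tested, which was 2.15 RPKM. FGF11 had 1.41 and 1.18 RPKM and FGFR3 had 0.388 and 0.508 RPKM. The level and rank of FGF11 are uncertain in both groups, as other genes of the same strand cover 75% of its exonic bases. At the low end FGF18 (0.255 and 0.384 RPKM), FGF1 (0.228 and 0.321) and FGF5 (0.285 and 0.257) overlapped with their neighbours, so their order was not resolved. In siPRR11 cells FGFR2, with 11.1 and 10.0 RPKM, had moved ahead of FGFR4, and FGF18, with 1.36 and 1.17 RPKM, had reached the level of FGF11, with 1.32 and 1.37 RPKM, with which its range overlapped. FGF1 and FGF5 again overlapped at the bottom. The order of FGFR2 and FGFR4 depends on the exonic lengths used, which were 7486 and 4829 bases. In CPM (reads not scaled to length) FGFR2 lay above FGFR4 in siNC as well, with 49.1 and 39.7 beside 45.65 and 39.1.

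Among the ligands, FGF18, a secreted factor known for its roles in bone and lung development, showed the largest change of the family. It occupies chromosome 5 (GRCh38, plus strand) from 171419656 to 171457623, and no other gene overlaps its exons. It had 42 and 45 reads in siNC and 251 and 196 reads in siPRR11. This corresponds to 0.514 and 0.776 CPM in siNC and 2.66 and 2.29 CPM in siPRR11. Both silenced libraries lay above both controls, with means of 0.645 ± 0.185 and 2.48 ± 0.262 CPM (SD, n = 2 each). The log2 fold change was 1.97 (standard error, SE, 0.248, edgeR adjusted p = 0.000364).

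Because FGF18 had few reads in siNC, counting error was examined. In each library between 76.5% and 78.05% of the genes with 1 to 20 reads had an even number of them. How read pairs were counted is not given in the sources used here, and the cause was not tested. Exact Poisson intervals were therefore computed from the read number divided by 2, which gives the wider interval. For FGF18 the 95% intervals were 0.318 to 0.785 and 0.489 to 1.17 CPM in siNC and 2.22 to 3.17 and 1.86 to 2.79 CPM in siPRR11. They cover counting error only, and those of siNC and siPRR11 did not overlap. With the counts of all genes divided by 2, an alternative chosen after seeing the data, the log2 fold change was 2 and the same number of genes of the family, 3, passed the threshold. On the log2(RPKM + 1) scale, which compresses low levels, limma gave 0.78 (adjusted p = 0.01578), where the added 1 is larger than the control level itself.

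FGF2, a broadly acting ligand that lacks a classical secretion signal but is exported and bound by heparan sulfate, was the most abundant ligand. It had 72.8 and 82.6 CPM in siNC and 77.0 and 77.2 CPM in siPRR11, and the silenced libraries lay between the controls. Its log2 fold change was -0.01, with a 95% interval from -0.189 to 0.169 and an adjusted p of 0.953 from edgeR's test. The sign changed with the scale, since limma on log2(RPKM + 1) gave 0.036. FGF2 lies on chromosome 4 from 122826708 to 122898236, and 11.9% of its exonic bases are shared with NUDT6 on the opposite strand. The use of strand in counting is not given in the sources used here, so reads in these bases are uncertain, and NUDT6 had a log2 fold change of 0.07 (edgeR adjusted p = 0.726).

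FGF1, a ligand that can bind all 4 signaling receptors, and FGF5, a secreted ligand known as a regulator of the hair cycle, were lower in both siPRR11 libraries without passing the threshold. FGF1 had 1.22 and 1.73 CPM in siNC and 1.06 and 0.795 CPM in siPRR11. Its log2 fold change was -0.65 (95% interval from -1.23 to -0.0723, edgeR adjusted p = 0.12). Leaving out siNC library 1 gave -0.89 with an adjusted p of 0.0404 from the same test. Over the 4 fits that each left out a library the value ranged from -0.89 to -0.40.
FGF5 had 1.74 and 1.57 CPM in siNC and 0.997 and 1.12 CPM in siPRR11, a log2 fold change of -0.65 (SE 0.221, edgeR adjusted p = 0.0669). Both genes had only 68 to 142 reads per library.

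FGF11, an intracellular member of the family known to act on voltage-gated sodium channels, had 7.95 and 6.69 CPM in siNC and 7.24 and 7.495 CPM in siPRR11, and the groups overlapped. Its log2 fold change was 0.00415 (95% interval from -0.272 to 0.281). This value is uncertain, as other genes of the same strand cover 75% of its exonic bases on chromosome 17 from 7438273 to 7444937. The sign changed in fits without 1 library, with -0.11 without siNC library 2 and -0.02 without siPRR11 library 2.

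Among the receptors, FGFR2 rose and FGFR1 fell. FGFR2, the receptor known for a choice between exons IIIb and IIIc that sets its ligands in epithelium and mesenchyme, lies on chromosome 10 from 121478334 to 121598458 on the minus strand. It had 49.1 and 39.7 CPM in siNC and 81.9 and 74.0 CPM in siPRR11, so both silenced libraries were far above the controls, although the controls differed from each other. The log2 fold change was 0.81 (SE 0.103, edgeR adjusted p = 0.0003765). Over the fits without 1 library it ranged from 0.67 to 0.97, and it passed the threshold under every test and scaling that was tried. Counts per gene do not tell the exon IIIb form from the IIIc form.

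FGFR1, the receptor with the highest mRNA level in these cells, had 185.7 and 219 CPM in siNC and 150.9 and 159.8 CPM in siPRR11. Both silenced libraries lay below both controls, and the gap to the lower control was smaller than the distance between the controls. The log2 fold change was -0.38 (SE 0.087, 95% interval from -0.571 to -0.191, edgeR adjusted p = 0.0112). Limma on log2(RPKM + 1) gave -0.31 with an adjusted p of 0.0978, so the call ended there. Of its exonic bases 1.23% are shared with an antisense gene.

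FGFR3, which is known to bind FGF18 and FGF9 and to restrain growth of cartilage, was much less abundant than the other receptors, with 1.91 and 2.501 CPM in siNC and 3.23 and 3.16 CPM in siPRR11. The groups did not overlap, but the controls differed, and the log2 fold change of 0.54 (SE 0.181, 95% interval from 0.147 to 0.94) had an adjusted p of 0.0616 in edgeR's test. Without siNC library 2 it was 0.74 with an adjusted p of 0.018, and without siNC library 1 it was 0.35. FGFR4, the receptor that pairs with KLB in bile acid control in the liver, had 45.6 and 39.1 CPM in siNC and 40.5 and 37.1 CPM in siPRR11, and the groups overlapped. Its log2 fold change was -0.13 (95% interval from -0.337 to 0.0794, edgeR adjusted p = 0.404).

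**Figure D1:**
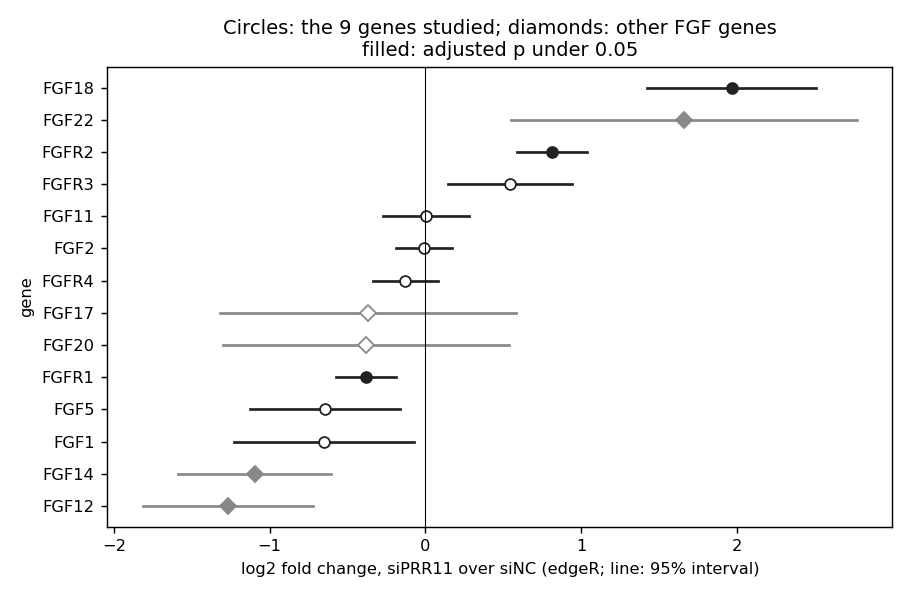
Log2 fold change of siPRR11 over siNC for the 9 genes (circles) and 5 other FGF genes with enough reads (diamonds), with lines for the 95% interval and filled symbols for an adjusted p under 0.05 in edgeR's test. FGF18 stands at 1.97 and FGFR2 at 0.81, while FGFR1 at -0.38, FGF14 at -1.09 and FGF12 at -1.27 lie on the other side of 0.

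FGFR1 and FGFR2 changed in opposite directions, and the makeup of the receptor mRNA was compared with its summed amount. The summed RPKM of FGFR1 to FGFR4 was 30.5 and 30.6 in siNC and 32.4 and 31.3 in siPRR11. Of this sum FGFR1 took 47.1% and 55.3% in siNC and 37.3% and 40.9% in siPRR11, and the groups did not overlap. FGFR2 took 21.1% and 17.0% in siNC, beside 34.3% and 32.1% in siPRR11. The mean share of FGFR2 was thus 14.1 percentage points higher in siPRR11 and that of FGFR1 differed by -12.2 points. FGFR4 took 24.95% to 30.5% in all libraries, with overlapping groups, and FGFR3 took at most 2.12%. The ratio of FGFR2 to FGFR1 in RPKM was 0.448 and 0.308 in control libraries, beside 0.921 and 0.785 after silencing. With 2 libraries against 2, an exact two-sided permutation test cannot go below p = 0.333, which was the value for FGFR1, FGFR2 and FGFR3, so these shares are given as a description.

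The secreted ligands were summed in the same way, as a description. Summed over the 10 FGF genes of the table whose products act outside the cell, the level was 11.7 and 13.5 RPKM in siNC and 13.8 and 13.5 RPKM in siPRR11. FGF2 took 90.2% and 88.4% of it in siNC and 83.9% and 85.8% in siPRR11. FGF18 took 2.17% and 2.84% in siNC and 9.90% and 8.69% in siPRR11, and in both siPRR11 libraries it followed FGF2.

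The other FGF genes were mostly near the limit of detection. Of 16 such names 9 were analysed, and 5 of them had enough reads to be tested, of which 1 rose and 2 fell. Over all genes tested 7.61% were higher and 9.14% lower, and 5 genes are few to set beside these shares. FGF12 and FGF14, intracellular relatives of FGF11, both fell. FGF12 had 1.39 and 1.59 CPM in siNC and 0.626 and 0.608 CPM in siPRR11, a log2 fold change of -1.27 (SE 0.25, edgeR adjusted p = 0.00522). FGF14 had 2.61 and 1.90 CPM in siNC and 1.09 and 1.03 CPM in siPRR11, a log2 fold change of -1.09 (SE 0.225, edgeR adjusted p = 0.00644). Genes of the other strand, mainly ITGBL1, cover 33.2% of the exonic bases of FGF14, and ITGBL1 itself had a log2 fold change of -0.97, which makes the value of FGF14 uncertain. With limma on log2(RPKM + 1) neither passed the threshold, with -0.14 for FGF12 and -0.11 for FGF14.

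FGF22, named here after its values had been seen, had 10 and 5 reads in siNC and 32 and 29 in siPRR11. Its log2 fold change of 1.66 had a SE of 0.509 and an adjusted p of 0.0442 in edgeR's test. That call was lost when any of the 4 libraries was left out, with adjusted p-values from 0.0676 to 0.156. FGF17 and FGF20 had 22 to 45 and 24 to 26 reads per library and did not pass the threshold. FGF7, FGF8, FGF10 and FGF13 had at most 12 reads in any library and were not tested.

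Co-receptors and carriers of FGFs showed no call among 5 genes tested with edgeR, DESeq2 or limma, and the lowest unadjusted p of edgeR's test was 0.359, for FGFBP3. With 16.7% of all genes called by edgeR, 5 genes are too few to tell no call from that share. FGFRL1, a receptor that lacks the kinase domain, was the most abundant, with 98.0 and 88.1 CPM in siNC and 92.6 and 95.4 CPM in siPRR11, and its log2 fold change was 0.01 (edgeR adjusted p = 0.932). KL, the co-receptor for FGF23 in the renal tubule, had 2.28 and 2.36 CPM in siNC and 2.74 and 1.73 CPM in siPRR11, and the groups overlapped. KLB, the co-receptor used with FGFR4, had 10 to 19 reads per library and FGFBP1 had 4 to 14, so a change in either could hardly be called.

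Heparan sulfate proteoglycans, whose sugar chains hold FGFs at the receptor, moved in both directions. Of 12 genes tested 3 rose and 2 fell, against 7.61% higher and 9.14% lower over all genes tested, and their median log2 fold change was -0.00578. The syndecans, which span the membrane, divided among themselves. SDC1 fell from 96.4 and 82.9 CPM to 65.2 and 58.1 CPM (log2 fold change -0.54) and SDC3 fell from 100.7 and 93.4 to 74.7 and 75.2 CPM (-0.37). SDC4 rose from 79.7 and 65.7 CPM to 102.8 and 100.6 CPM (0.48), and SDC2 rose from 227.2 and 238.1 to 285.4 and 337.6 CPM (0.42). HSPG2, the basement membrane proteoglycan perlecan, rose by 0.32. Of its exonic bases 12% are shared with LDLRAD2 on the opposite strand, so reads in these bases are uncertain. The call of SDC3 was lost with limma on log2(RPKM + 1) (-0.30, adjusted p = 0.0511). That of SDC2 was lost without siPRR11 library 2 (0.30) and that of HSPG2 without siPRR11 library 1 (0.30).

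Of 16 tested enzymes that build or edit these chains, 2 rose and 3 fell, beside 7.61% and 9.14% of all genes tested, with a median log2 fold change of -0.17. With limma at either pseudocount EXT1 was the 1 gene of the list still past the threshold. EXT1, a subunit of the polymerase that extends the chain, fell from 200.6 and 214.6 CPM to 144.5 and 152.3 CPM (log2 fold change -0.48, edgeR adjusted p = 0.00124), and NDST1, which starts sulfation of the chain, fell by 0.38. HPSE, the heparanase that cuts the chains, fell by 0.44. EXTL3, which acts at the start of chain synthesis, rose by 0.48 and HS2ST1, a sulfotransferase, rose by 0.34. The call of EXTL3 was lost with limma on log2(RPKM + 1) (0.29, adjusted p = 0.0937), as were those of NDST1, HS2ST1 and HPSE. In edgeR's test the calls of NDST1 and HS2ST1 were lost without siPRR11 library 1 (-0.32 and 0.32), that of HS2ST1 also without siPRR11 library 2 (0.35), and that of HPSE without siNC library 2 (-0.38) or either siPRR11 library (-0.36 and -0.53).

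Adaptors carry the signal from the receptor into the cell. FRS2, the main docking protein of FGF receptors, was at 32.8 and 32.2 CPM on average in siNC and siPRR11, with a log2 fold change of -0.03. Of 10 genes tested 2 were called, a share near the 16.7% of all genes. SHC1, an adaptor shared by many receptors, rose by 0.36 (edgeR adjusted p = 0.0118), and this call was lost without siPRR11 library 2 (0.28). SOS1, an exchange factor that activates RAS, fell by 0.40 (edgeR adjusted p = 0.00785), and this call was lost with limma on log2(RPKM + 1) (-0.29, adjusted p = 0.091), while that of SHC1 was kept there (0.40).

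Feedback inhibitors and transcripts known to follow FGF and ERK signaling were tested for 16 genes, of which none rose and 3 fell. The 3 of 16 called are a share near the 16.7% of all genes, of which 9.14% were lower, and the count fell to 1 with limma at either pseudocount. IL17RD, a membrane inhibitor of FGF receptor signaling also known as Sef, showed the largest fall. It had 2.36 and 2.62 CPM in siNC and 0.806 and 0.702 CPM in siPRR11, a log2 fold change of -1.72 (SE 0.217, edgeR adjusted p = 0.000362). This was the single gene of the list that passed the threshold under every setting tried, with limma on log2(RPKM + 1) giving -0.22. SPRED2, an inhibitor of RAS-ERK signaling, fell from 18.1 and 22.0 CPM to 13.4 and 13.3 CPM (-0.59), a call lost with limma on log2(RPKM + 1) (-0.41, adjusted p = 0.0722). ETV4, a transcription factor induced by FGF signaling, fell from 2.08 and 2.64 CPM to 1.02 and 1.56 CPM (-0.87, edgeR adjusted p = 0.0285), but not past the threshold without siNC library 2 (-0.70) or without siPRR11 library 1 (-0.59). Other classical targets had values on both sides of 0. DUSP5 had a log2 fold change of -0.36, DUSP6 of -0.32, SPRY2 of -0.41, SPRY4 of 0.41 and ETV5 of 0.36, and none of these passed the threshold. SPRY2 came near it (edgeR adjusted p = 0.0581), while the groups of ETV5 and DUSP6 overlapped. Of the exonic bases of DUSP6 40.5% are shared with a gene of the other strand, so its value is uncertain. Of the 16 genes 7 had a log2 fold change above 0 and 9 below.

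Splicing factors known to act on the alternative exons of FGFR2 were tested for 8 genes. PTBP2, a repressor of exon inclusion, fell from 6.57 and 6.002 CPM to 4.11 and 4.19 CPM (log2 fold change -0.60, edgeR adjusted p = 0.00906), the 1 gene called of the 8. This call was lost with limma on log2(RPKM + 1) (-0.16, adjusted p = 0.103) and log2(RPKM + 0.1) (-0.44, adjusted p = 0.151). ESRP1 and ESRP2, epithelial factors that favour exon IIIb, were at only 0.368 and 1.55 CPM on average in siNC and did not pass the threshold. Over the 6 lists of pathway genes together, 16 of 67 genes tested (23.9%) were called, 6 higher and 10 lower, beside 16.7% of all genes, and their median log2 fold change was -0.06. With limma on log2(RPKM + 1) 7 of the 67 passed, beside 1775 of all 21630 genes tested.

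The genes whose levels followed FGF18 most closely were found by the distance between log2 CPM values over the 4 libraries, taken relative to the siNC mean, among 15880 genes. They were KRT4 at a distance of 0.317, ZNF714 at 0.374 and CLSTN2 at 0.484. KRT4 had 1.97 and 2.17 CPM in siNC and 8.08 and 7.24 CPM in siPRR11. The distance was taken over 4 libraries in 2 groups, so the size of the rise weighs heavily in it.

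Over the fits without 1 library FGF18 ranged from 1.67 to 2.27 and FGFR1 from -0.50 to -0.26. FGF2, FGF11 and FGFR4 stayed within 0.24 of 0 under all of these settings.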

How the data were processed

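RNA-seq was performed on ACHN cells transfected with siNC or siPRR11, with 2 libraries each, grouped from the sample titles. Stranded libraries were sequenced on a DNBSEQ-T7, and reads were trimmed (Trimmomatic 0.36), aligned to GRCh38 with STAR and counted per gene with featureCounts (Subread 1.5.1). The authors deposited raw read counts per gene and RPKM values, which equal the counts per exonic length and column total to within 3.08e-06%. The annotation release and the strand setting of counting are not given in the sources used here.

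Counts were tested with edgeR 4.0.16 in R 4.3.3 (TMM, factors 0.983 to 1.018; filterByExpr, which kept 21630 genes; quasi-likelihood test with condition as the only term; Benjamini-Hochberg adjustment; threshold 0.05). The standard error is the log2 fold change divided by the square root of F. Alternatives used DESeq2 1.42.0, edgeR's exact test, other scalings and filters, a replicate term, limma 3.58.1 on log2(RPKM + 1) and log2(RPKM + 0.1) with a variance trend, counts divided by 2, and 1 library left out, where the lone library of a group is assumed to vary like the others. Libraries of a group differed by more than sampling noise (chi-square per degree of freedom 19 in siNC and 12.9 in siPRR11). On simulated data for this comparison, edgeR's quasi-likelihood test recovered 35 of 66 genes changed by 0.5, 56 of 67 by 1 and 66 of 67 by 2 (log2) among 21630 genes. Only 200 genes were changed there, with 6 false calls, while 3622 were called in the data. The adjustment thus acted under another setting, and recovery in the data may differ.

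The genes and lists were chosen with earlier results of these data known. Named are the 9 family genes, PRR11, in each list at most the 4 largest changes with non-overlapping groups, an adjusted p under 0.05 and a mean log2 CPM not below 0, and the 3 genes nearest to FGF18. Other genes were named after their values were seen.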

Additional observations from a re-analysis of the deposited data

How the results depend on the processing

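The rises of FGF18 and FGFR2 kept their direction and their side of the threshold under all alternatives, and the fall of FGFR1 under all but limma, where it was -0.31 on log2(RPKM + 1) and -0.33 on log2(RPKM + 0.1). The number of family genes past the threshold was 3 in the test as reported, 5 with edgeR's exact test, 6 without a filter on low counts and 3 to 4 with 1 library left out. The number called over all genes rose as well, from 3622 in the test as reported to 4238 with the exact test and 4460 without the filter. The added calls of the family were FGF5 (-0.65) and FGFR3 (0.54) with the exact test, and FGF1 (-0.65), FGF5 (-0.65) and FGFR3 (0.55) without the filter. FGF2 reversed to 0.036 and 0.039 (log2) with limma at the pseudocounts of 1 and 0.1, and FGF11 to -0.00133 with counts divided by 2. With 1 library left out FGF1 ranged from -0.89 to -0.40, FGF2 from -0.1 to 0.081, FGF11 from -0.11 to 0.14 and FGFR3 from 0.35 to 0.74. The cause was not tested.

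The replicate numbers were entered as a block, although the labels do not say that they mark shared batches. Deviations of same-numbered libraries correlated at 0.42 over 15889 genes. With the block 6988 genes of all, 6 family genes (FGF1 -0.64, FGF5 -0.65 and FGFR3 0.55 in addition) and 32 pathway genes passed, against 3622, 3 and 16 without it.

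Over all genes limma called 1775 and 1878 at the pseudocounts of 1 and 0.1, and 7 and 8 pathway genes. With 1 library left out these counts ranged from 2217 (without siPRR11 library 1) to 4251 and from 12 to 21. With counts divided by 2 the adjusted p of edgeR's test went from 0.12 to 0.124 for FGF1 and from 0.0669 to 0.0598 for FGF5, and FGF18 stayed past the threshold. FGF7, FGF8, FGF10 and FGF13 had too few reads for a test.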
